A study of Mus musculus with 48 samples.

Results

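The 10 genes described here are grouped as immediate early genes. A neuron typically transcribes genes of this class within minutes of strong electrical activity, without first making new protein. The earliest tissue here was from day 3, so this timing was not observed for any of the 10. Fos, Fosb, Fosl1, Fosl2, Jun and Junb encode subunits of the AP-1 transcription factor. Egr1, Npas4 and Nr4a1 encode other transcription factors, and Arc encodes a cytoplasmic effector at the synapse. The 10 were chosen by name from textbook knowledge of this gene class, but with earlier results of these data known. All 10 were among the 55357 genes of the count table and passed the filter for low counts. AP-1 is a dimer of a Fos and a Jun protein that binds DNA and regulates later genes. Calcium entry through glutamate receptors and voltage-gated channels activates kinases, and these act on CREB and the serum response factor, which sit in advance at the promoters of immediate early genes. In the dentate gyrus the transcripts are kept low at rest in most granule cells and rise after a seizure.

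On GRCm39 with the Gencode M39 gene models, Fos (ENSMUSG00000021250) lies at chr12:85520658-85524047, Fosb (ENSMUSG00000003545) at chr7:19036621-19043976, Fosl1 (ENSMUSG00000024912) at chr19:5497575-5505974 and Fosl2 (ENSMUSG00000029135) at chr5:32292707-32315186. Jun (ENSMUSG00000052684) lies at chr4:94937271-94940459 and Junb (ENSMUSG00000052837) at chr8:85701113-85705359. Egr1 (ENSMUSG00000038418) is on chromosome 18, Npas4 (ENSMUSG00000045903) at chr19:5034382-5040344, Nr4a1 (ENSMUSG00000023034) at chr15:101151980-101172681 and Arc (ENSMUSG00000022602) at chr15:74540932-74544419. Counts cover the exons of each gene.

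Dorsal dentate gyrus was dissected from both hemispheres of 24 wild-type C57BL/6J mice, giving 48 libraries of polyA RNA. Mice had received kainate, an agonist of glutamate receptors that evokes status epilepticus, or saline into 1 hippocampus, and tissue was collected at day 3, 7 or 14, so that each of 12 groups held 4 libraries. The injected side is the epileptogenic zone (EZ) and the opposite side the peri-ictal zone (PIZ), so every mouse gave 1 library to each. The series record gives an age of 6 to 8 weeks at the start, and the study's methods give a slightly older one. Each group had 2 male and 2 female mice, and only kainate mice with an observed convulsive seizure were kept. No mouse carried a transgene or a deletion. The dissected tissue holds hilar neurons, glia and vessels beside granule cells, and in such bulk tissue fewer cells of a type and less RNA per cell cannot be told apart. Library totals lay between 17762656 and 25712975 counts, and 21390 genes were tested.

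Values are given in CPM, that is, counts scaled to library size with TMM factors, and fold changes are log2 values from 1 edgeR quasi-likelihood model of all 48 libraries, with their standard error (SE). A gene was called at a Benjamini-Hochberg adjusted p under 0.01, over all genes tested, with a fold change over 1.5. As a check of the dissection, the summed level of 6 granule cell markers lay between 592.1 and 993.1 CPM in the 12 saline EZ libraries and between 491.2 and 936.4 CPM in the 12 saline PIZ libraries. That of 4 CA1 pyramidal cell markers lay between 194.5 and 514.7 CPM in the saline EZ and between 109.2 and 510.8 CPM in the saline PIZ. The granule cell markers therefore do not show that the tissue was free of CA1.

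In 2 kainate mice the EZ library stood apart from the other 3 of its group in these genes. In mouse 44 at day 3 Npas4, Egr1, Nr4a1 and Arc were near or below the saline levels, and in mouse 27 at day 14 Fos, Fosl2, Npas4 and Nr4a1 were as high as in the earlier groups. Results that rest on them are given with and without the mouse. Both were singled out by their levels of these same genes, so leaving either out steers the result. Values without a mouse are a description, and their p-values are not those of an independent test.

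The stretch of DNA just before the start of transcription is where CREB binds the cyclic AMP response element (CRE), so these stretches are shown for 4 genes that rose in the EZ and hold its half-site, and for Jun, which did not pass the test. Each is the 250 bases before the start of the canonical transcript, read from GRCm39, 5′ to 3′ on the gene's strand, with matches to TGACG on either strand in capitals.

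Fos, chr12:85520408-85520657, plus strand: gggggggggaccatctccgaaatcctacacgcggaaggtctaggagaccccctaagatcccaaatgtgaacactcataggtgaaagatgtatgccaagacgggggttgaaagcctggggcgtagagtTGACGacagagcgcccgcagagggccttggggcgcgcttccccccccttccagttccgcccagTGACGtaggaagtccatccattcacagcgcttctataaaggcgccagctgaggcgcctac
Fosb, chr7:19043977-19044226, minus strand: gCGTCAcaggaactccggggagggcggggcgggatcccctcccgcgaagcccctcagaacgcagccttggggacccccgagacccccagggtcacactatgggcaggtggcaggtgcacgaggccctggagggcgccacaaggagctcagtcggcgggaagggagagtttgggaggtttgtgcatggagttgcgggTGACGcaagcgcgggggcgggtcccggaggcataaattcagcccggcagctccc
Junb, chr8:85705348-85705597, minus strand: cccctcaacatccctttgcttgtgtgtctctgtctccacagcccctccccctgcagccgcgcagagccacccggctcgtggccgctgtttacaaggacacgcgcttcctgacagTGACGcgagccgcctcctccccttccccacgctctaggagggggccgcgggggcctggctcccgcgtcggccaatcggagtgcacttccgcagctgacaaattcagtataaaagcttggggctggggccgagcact
Nr4a1, chr15:101164410-101164659, plus strand: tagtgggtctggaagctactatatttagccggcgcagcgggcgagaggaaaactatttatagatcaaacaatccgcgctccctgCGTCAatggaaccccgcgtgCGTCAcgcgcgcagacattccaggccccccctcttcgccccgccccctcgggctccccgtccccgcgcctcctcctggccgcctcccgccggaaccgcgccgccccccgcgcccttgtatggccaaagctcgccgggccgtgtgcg
Jun, chr4:94940460-94940709, minus strand: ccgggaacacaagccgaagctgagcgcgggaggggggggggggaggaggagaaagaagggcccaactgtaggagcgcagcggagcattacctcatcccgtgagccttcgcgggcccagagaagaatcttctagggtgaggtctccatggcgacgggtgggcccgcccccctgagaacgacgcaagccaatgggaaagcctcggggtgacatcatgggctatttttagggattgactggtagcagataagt

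The half-site TGACG was in the window of 5 of the 10 genes. It was absent from the windows of Fosl1, Fosl2, Npas4 and Arc, which rose in the EZ at days 3 and 7, and from that of Jun. The stretches shown therefore do not test a link of the half-site with the rise. Fos, Fosb and Nr4a1 had 2 matches each and Junb and Egr1 had 1, whereas 18% of the 21769 protein-coding promoter windows of that length held at least 1. In Fos the matches began 123 and 60 bases before the start, and in Fosb the nearer one began 54 bases before it. The full element TGACGTCA, which contains the half-site, was in none of the 10 windows and in 1.7% of all. The AP-1 motif TGANTCA (6.17% of all windows), the EGR motif GCGTGGGCG (0.547%) and the CArG box of the serum response element (1.4%) were not in any of the 10 windows either. A match describes these letters only, and elements further from the start were outside the window.

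At rest the genes differed widely in level. Per kilobase of exon, the mean over the 24 saline libraries was highest for Jun, at 29.5 ± 4.38 CPM per kilobase (SD, n = 24), followed by Arc at 17.7 ± 7.05, Egr1 at 12.3 ± 3.72 and Junb at 7.46 ± 2.56. Fosl2 followed at 3.68 ± 0.722, Nr4a1 at 2.68 ± 0.939, Fos at 1.99 ± 1.12, Npas4 at 1.6 ± 0.599, Fosb at 0.724 ± 0.193 and Fosl1 at 0.0198 ± 0.0289. Within 1 SD, Arc overlapped Egr1, Egr1 overlapped Junb, and Fosl2, Nr4a1, Fos and Npas4 each overlapped the next, while Jun, Fosb and Fosl1 stood clear of their neighbours. In the kainate EZ at day 3 the order of these per-kilobase levels was Arc at 63.8 ± 36.9 (SD, n = 4), Jun at 33.2 ± 4.92, Fos at 32.4 ± 18.4, Egr1 at 27.5 ± 13.9 and Junb at 26.8 ± 3.39, all overlapping the next. Fos, far below Jun at rest, thus had a mean close to that of Jun.

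**Figure D1:**
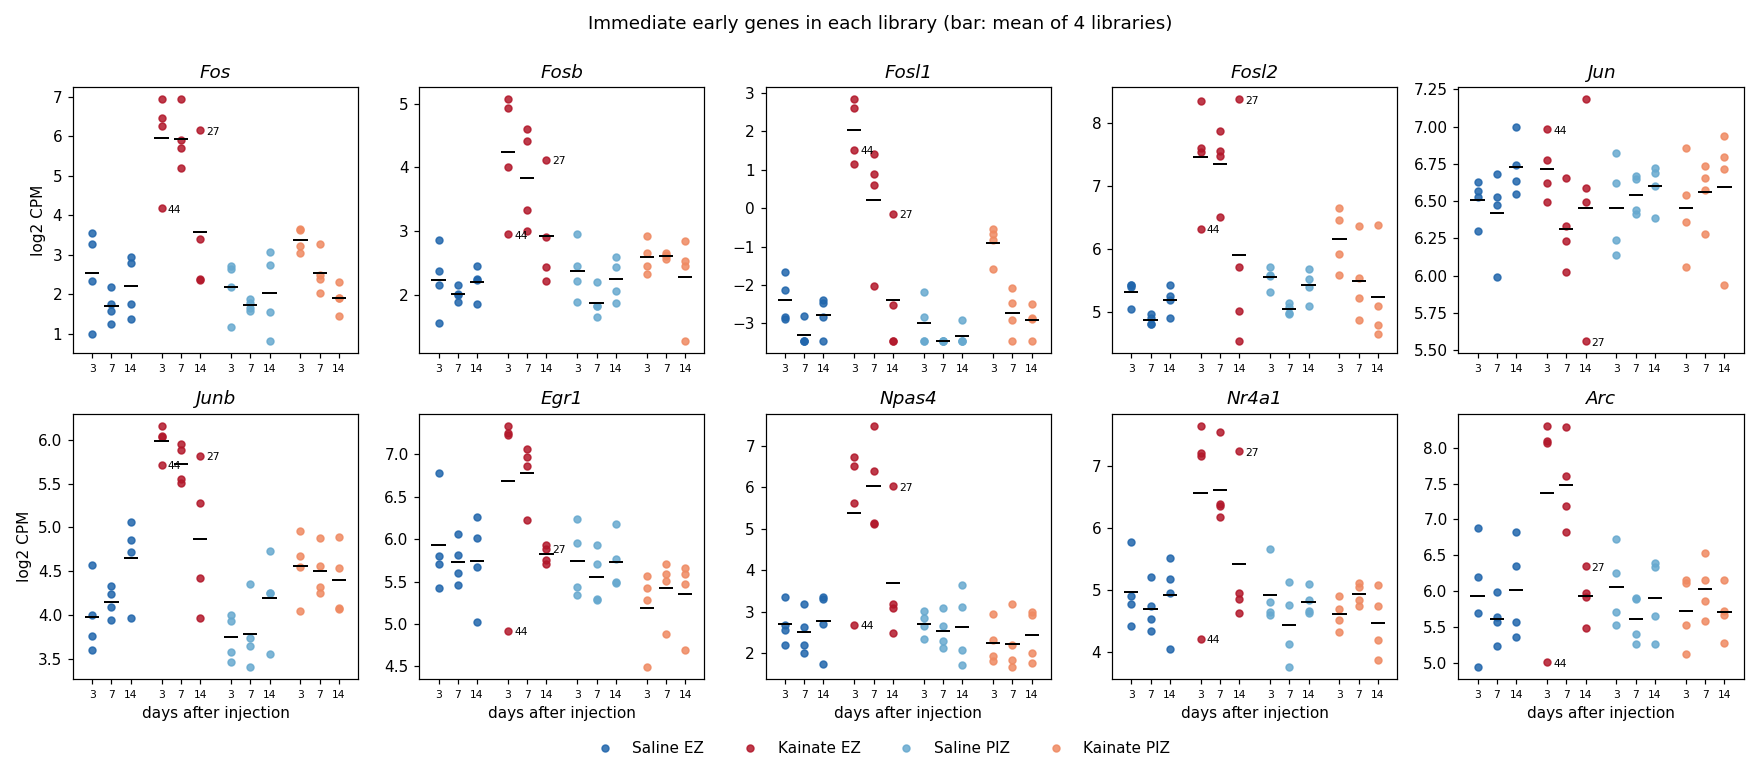
Each panel plots 1 gene, with log2 CPM on a vertical axis of its own and the days after injection on the horizontal axis; each point is a library, colored by treatment and side, and black bars are means of 4 libraries. Kainate EZ libraries at days 3 and 7 lie above the saline EZ libraries of their day for Fos, Fosb, Fosl1, Fosl2 and Junb, Jun shows no such shift, and the EZ libraries of mice 44 and 27 are numbered.

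In the EZ, kainate was followed by a rise of most of these genes at day 3 and day 7 that was no longer called at day 14. At day 3, 8 of the 10 genes were upregulated and none downregulated, while 16.1% of all genes tested were called up and 8.61% down. At day 7, 9 of the 10 were upregulated, against 20.6% of all genes called up and 11.9% down. At day 14 none of the 10 was called in either direction, with 2.32% of all genes called up and 0.0374% down. As a median, these 10 genes stood at a log2 change of 2.07 on day 3, 2.00 on day 7 and 0.90 on day 14 in the EZ, whereas the median of all genes tested was 0.03 on day 3. Without mouse 44 the day 3 median was 2.38, and without mouse 27 the day 14 median was -0.02, with 7 of all genes called at day 14 in place of 504.

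Fos encodes the founding subunit of the Fos family and is the usual histological mark of recently active neurons. At day 3 its EZ level was 122, 87.6, 77.3 and 18.1 CPM in the kainate mice and 11.6, 9.59, 4.92 and 1.9 CPM in the saline mice. At day 7 it was 123, 60.3, 52.1 and 36.5 CPM against 4.44, 3.3, 2.91 and 2.26 CPM. The groups did not overlap on either day, although at day 3 mouse 44 lay much nearer to saline than the others. Fos rose by a log2 change of 3.45 (SE 0.63, adjusted p = 3.15e-05) at day 3 and 4.39 (SE 0.67, adjusted p = 1.1e-06) at day 7.

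Fosb encodes another Fos protein, whose truncated splice form ΔFosB is long-lived and accumulates with repeated activity. Gene counts add both forms together, so they cannot be told apart here. Its EZ level was 33.4, 30.5, 16.1 and 7.66 CPM at day 3 and 24.1, 21.3, 9.99 and 7.92 CPM at day 7 in kainate mice, and no saline library of either side exceeded 7.67 CPM. On the log2 scale Fosb rose by 2.17 (SE 0.38, adjusted p = 1.78e-05) at day 3 and 2.00 (SE 0.38, adjusted p = 3.36e-05) at day 7. The low kainate mice at day 7, 21 and 23, were within the kainate range of Fos, so the order of the mice differed between these genes.

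Fosl1, which encodes Fra-1, was nearly silent without kainate. The 4 saline EZ libraries held 10 counts in sum at day 3 and 1 count at day 7. The kainate EZ libraries held 184, 165, 66 and 56 counts at day 3 and 62, 45, 37 and 3 counts at day 7, the last in mouse 23. The ratio of summed, scaled counts was 39.6 (95% exact interval 21.3 to 83.1) at day 3 and 129 (22.8 to 5130) at day 7, and these intervals cover counting error only. Fosl1 was called at both days, with an adjusted p of 1.08e-06 and 4.82e-06.

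Fosl2, which encodes Fra-2, was the most abundant Fos family transcript at rest. In the EZ it was 327, 196, 187 and 79.9 CPM in kainate mice at day 3, and 236, 189, 178 and 90.9 CPM at day 7. Saline EZ libraries stayed between 33 and 43 CPM at day 3 and between 28 and 31.3 CPM at day 7, so that even the lowest kainate library was clear of them. Kainate raised Fosl2 by 2.30 in log2 units (SE 0.50, adjusted p = 0.00024) at day 3 and 2.57 (SE 0.50, adjusted p = 4.5e-05) at day 7.

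The Jun family split. Junb, whose protein dimerizes with Fos proteins, was 71.4, 65.8, 65.5 and 52.4 CPM in the kainate EZ at day 3 against 23.7, 15.9, 13.4 and 12 CPM in saline, and 61.7, 58.7, 47 and 45.5 CPM at day 7 against 20, 18.8, 17 and 15.3 CPM. It had the tightest kainate groups of the rising genes, with mouse 44 only slightly below the rest, and rose by 1.97 in log2 units (SE 0.29, adjusted p = 1.36e-06) at day 3 and by 1.58 (SE 0.28, adjusted p = 1.4e-05) at day 7. Jun was 126, 110, 98.5 and 89.8 CPM in the kainate EZ at day 3 and 98.9, 94.8, 92.3 and 78.6 CPM in saline. The Jun groups overlapped on every day and both sides, and its EZ log2 fold change was 0.22 (SE 0.21, adjusted p = 0.413) at day 3, -0.11 (SE 0.21, adjusted p = 0.668) at day 7 and -0.18 (SE 0.21, adjusted p = 0.699) at day 14. A change of Jun was therefore not detected in any of the 6 comparisons of kainate with saline.

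Npas4 encodes a neuron-specific factor that responds to calcium entry and shapes inhibitory synapses. In the EZ at day 3 it was 107, 91.3, 49.6 and 6.36 CPM in kainate mice and 10.1, 6.35, 5.87 and 4.48 CPM in saline mice, so mouse 44 lay inside the saline range. At day 7 it was 179, 84.7, 35.2 and 34.6 CPM against 8.98, 6.09, 4.52 and 3.95 CPM, with no overlap. In log2 units Npas4 rose by 3.24 (SE 0.66, adjusted p = 0.000118) at day 3, and by 3.62 (SE 0.62, adjusted p = 1.28e-05) without mouse 44. At day 7 it rose by 3.83 (SE 0.68, adjusted p = 1.06e-05).

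Nr4a1, an orphan nuclear receptor, was 202, 149, 144 and 18.5 CPM in the kainate EZ at day 3, where the saline mice had 55, 29.8, 27.3 and 21.2 CPM. At day 7 it was 187, 83.9, 82.5 and 72.7 CPM against 36.9, 26.6, 23 and 20 CPM. Mouse 44 was below every saline mouse of its day and the other kainate libraries were above all of them. Its log2 fold change was 1.94 (SE 0.49, adjusted p = 0.0012) at day 3, 2.31 (SE 0.44, adjusted p = 6.22e-05) without mouse 44, and 2.00 (SE 0.49, adjusted p = 0.000672) at day 7. In a model of only the 8 libraries compared, the day 3 adjusted p of Nr4a1 was 0.0249, which missed the threshold.

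Egr1, a zinc finger factor whose resting transcription follows ordinary synaptic activity, changed least among the genes that were called. It was 162, 152, 150 and 30.2 CPM in the kainate EZ at day 3 against 110, 55.6, 52 and 42.9 CPM in saline, and was not called, at 0.92 (SE 0.33, adjusted p = 0.0192). Without mouse 44, which was singled out partly by its low Egr1 level, Egr1 was called, at 1.25 (SE 0.27, adjusted p = 0.000249). That made 9 of 10 genes upregulated, where 17% of all genes were called up. Egr1 was also called without saline mouse 37, the highest control, at an adjusted p of 0.0029, and with library size as the only scaling, at 0.00755. At day 7 it was 134, 125, 116 and 75 CPM against 66.8, 56.1, 48.6 and 43.9 CPM, without overlap. The log2 fold change there was 1.06 (SE 0.33, adjusted p = 0.00595), a call that was lost when any of kainate mice 23, 26 and 35 or saline mice 33, 34 and 89 was left out, with an adjusted p of up to 0.0242.

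Arc encodes a protein that removes AMPA receptors from synapses, and its mRNA travels into dendrites. It was 317, 274, 267 and 32.1 CPM in the kainate EZ at day 3 and 118, 73, 51.6 and 30.4 CPM in saline. At day 7 it was 313, 194, 146 and 113 CPM against 63.4, 49.8, 47.2 and 37.5 CPM. Mouse 44 was thus at the bottom of the saline range at day 3, and at day 7 all kainate libraries were above saline. Arc rose by 1.71 (SE 0.43, adjusted p = 0.00129) at day 3, by 2.07 (SE 0.36, adjusted p = 2.01e-05) without mouse 44, and by 1.95 (SE 0.43, adjusted p = 0.000237) at day 7, all as log2 fold changes. In a model of only the 8 libraries compared, the day 3 adjusted p of Arc was 0.051, which missed the threshold.

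**Figure D2:**
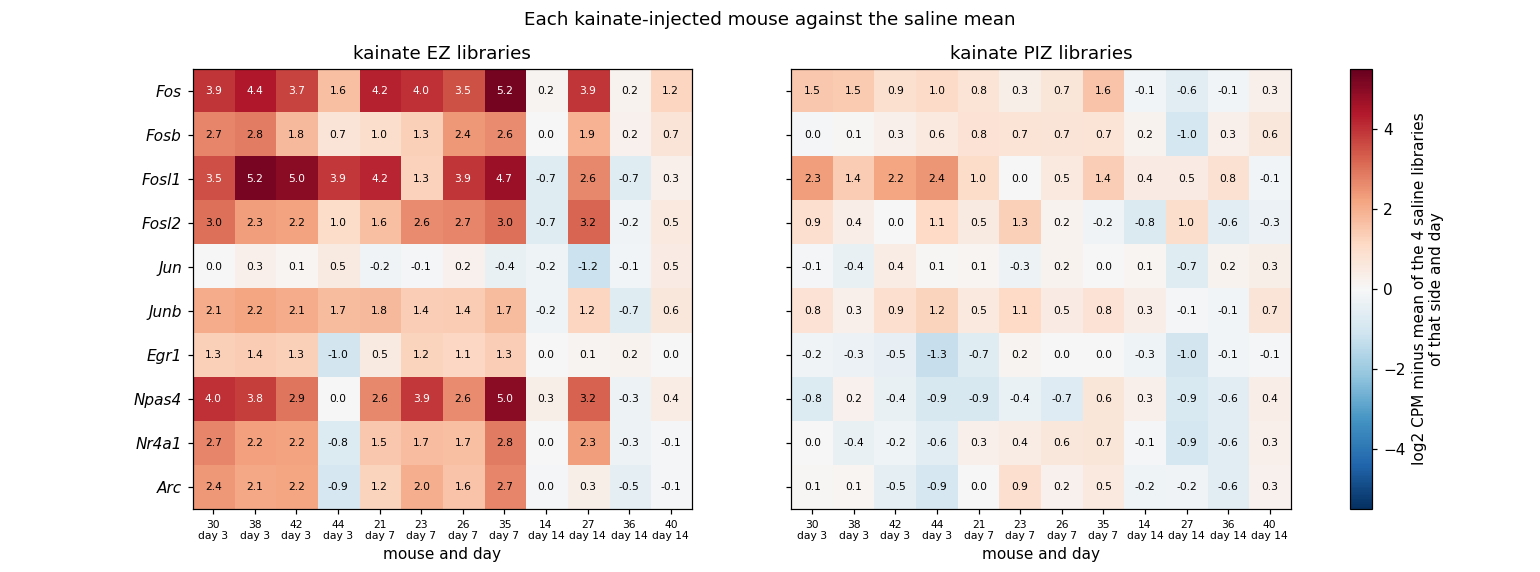
Rows are genes and columns are the 12 kainate mice by day; each cell gives log2 CPM minus the mean of the 4 saline libraries of that side and day, with the EZ on the left and the PIZ on the right. In the EZ mouse 44 is negative or at 0 for Egr1, Npas4, Nr4a1 and Arc but at 3.9 for Fosl1 and 1.7 for Junb, and mouse 27 is the only day 14 mouse with values over 2.

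Mouse 44 divided the genes. Relative to the saline mean of its side and day, its EZ library was at -1.01 for Egr1, -0.01 for Npas4, -0.75 for Nr4a1 and -0.91 for Arc in log2 CPM, but at 3.90 for Fosl1, 1.73 for Junb, 1.65 for Fos, 1 for Fosl2 and 0.71 for Fosb. The AP-1 genes were above the saline mean in this library, Jun by 0.47, and the other 4 genes were not. Its summed level of 6 neuron markers, 3247 CPM, was inside the 1936 to 3327 CPM of the other 3 kainate mice, and its total of 7 microglia markers, 1456 CPM, was inside their 1427 to 2486 CPM. Its 6 granule cell markers summed to 615.9 CPM, above the 349.9 to 533.7 CPM of the others, and its 4 markers of CA1 pyramidal cells to 166.5 CPM against 56.85 to 77.01 CPM. It was below the others in markers of oligodendrocytes (1591 against 2318 to 3427 CPM), their precursors (83.81 against 146.7 to 204.2 CPM), fibroblasts (64.95 against 94.88 to 344.7 CPM) and immature neurons (78.76 against 95.8 to 129 CPM), and just outside them in markers of astrocytes (9873 against 8262 to 9666 CPM), leukocytes (44.12 against 52.18 to 109.6 CPM), endothelium (189.4 against 192.6 to 304.4 CPM) and choroid plexus (8.587 against 6.274 to 7.98 CPM). The part of these cell types in the levels of mouse 44 was not tested.

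The result at day 14 rested on mouse 27. In the EZ at day 14, Fos was 71.1 CPM in mouse 27 and 10.4, 5.17 and 5.04 CPM in the other kainate mice, while saline mice had 7.53, 6.83, 3.26 and 2.5 CPM. Npas4 was 65.1 CPM in mouse 27 and between 5.56 and 8.98 CPM in the other 3, and Fosl2 was 334 CPM against 23.1 to 52.3 CPM. Nr4a1 was 151 CPM in mouse 27 and between 24.7 and 30.7 CPM in the others. Egr1, at 59.1 CPM, and Arc, at 81.5 CPM, were inside the saline ranges of 32.4 to 76.4 and 40.8 to 113 CPM, so this library combined raised Fos, Npas4 and Nr4a1 with resting levels of Egr1 and Arc. Its Jun level, 47.1 CPM, was the lowest of all 48 libraries.

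With mouse 27 the day 14 log2 fold changes were 2.19 (SE 0.62, adjusted p = 0.0267) for Fos, 1.58 (SE 0.49, adjusted p = 0.0462) for Fosl2 and 1.57 (SE 0.63, adjusted p = 0.157) for Npas4. Without it they were 0.46 (SE 0.53), -0.03 (SE 0.32) and 0.05 (SE 0.59), each with an adjusted p of 1. Leaving out mouse 14 or mouse 36 instead gave calls for Fos, with an adjusted p of 0.0068 and 0.00654, and for Fosl2, with 0.00577 and 0.00871. DESeq2 called Fos, at an adjusted p of 0.0075. Other markers moved with mouse 27 as well: its 7 microglia markers summed to 3184 CPM against 503 to 751.7 CPM in the other 3 mice, its 7 astrocyte markers to 11550 against 5394 to 6098 CPM, and its 6 neuron markers to 2859 against 3709 to 4867 CPM. All 15 marker lists placed mouse 27 outside the other 3 mice, among them those of fibroblasts (101 against 19.46 to 26.48 CPM), leukocytes (86.1 against 16.24 to 24.9 CPM), endothelium (200.5 against 135 to 150 CPM), CA1 pyramidal cells (58.37 against 141.5 to 453.5 CPM) and granule cells (437.2 against 516.3 to 959.9 CPM), and their part in the result was not tested.

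The fall from day 7 to day 14 was tested as the difference of the 2 kainate effects in the EZ. With all mice none of the 10 genes was called, where 0.271% of all genes were, and the differences closest to the threshold were those of Arc, -2.13 (SE 0.60, adjusted p = 0.022), and Junb, -1.23 (SE 0.40, adjusted p = 0.0343). Leaving out mouse 27, which was singled out by its high day 14 levels, lowers that group by choice, so what follows is a description. Without mouse 27, 8 of the 10 genes were lower at day 14, while 13.1% of all genes were called lower. These were Fos, at -3.93 (SE 0.74, adjusted p = 9.67e-05), Npas4, at -3.78 (SE 0.81, adjusted p = 0.000453), Fosl2, at -2.61 (SE 0.44, adjusted p = 2.33e-05), and Fosb, Fosl1, Junb, Nr4a1 and Arc, with adjusted p of 0.00106 to 0.007. Egr1, at -1.08 (SE 0.48, adjusted p = 0.0753), and Jun, at 0.16 (SE 0.24, adjusted p = 0.633), were not called. Between day 3 and day 7 none of the 10 EZ effects differed by the test, with 0.145% of all genes called, and the largest difference among genes with ample counts was that of Fos, 0.95 (SE 0.85, adjusted p = 0.716).

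**Figure D3:**
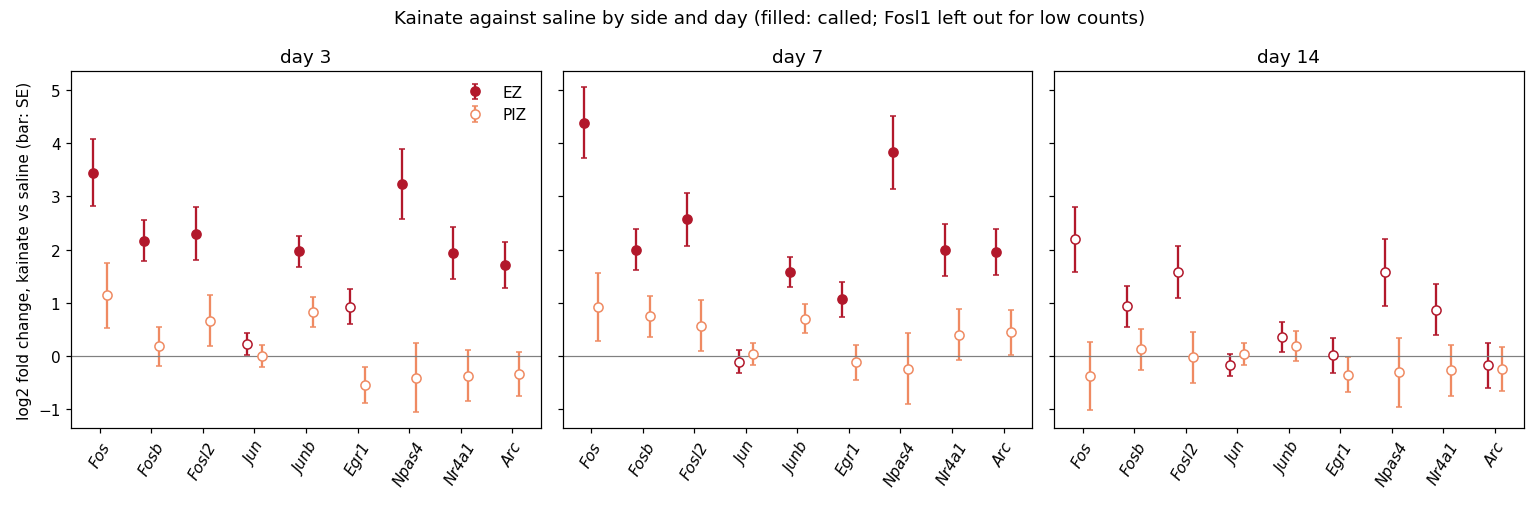
The vertical axis is the log2 fold change of kainate against saline with its SE, the horizontal axis lists 9 genes, and panels are days; dark points are the EZ, light points the PIZ, and filled points were called. Filled points occur only in the EZ at days 3 and 7, Jun lies near 0 throughout, and Fosl1 is left out because many of its libraries held 3 counts or fewer.

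On the side opposite the injection none of the 10 genes was called at any day. At day 3 that stood beside 7.12% of all genes called up and 1.57% down in the PIZ, at day 7 beside 0.15% and 0.0514%, and at day 14 beside 0.00935% and 0.00468%. In the PIZ the median over the 10 genes, in log2 units, was 0.09 on day 3, 0.50 on day 7 and -0.14 on day 14. Leaving out Fosl1 it was 0, 0.44 and -0.25.

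Within the PIZ the AP-1 genes Fos, Junb and Fosl1 lay above saline at day 3 without passing the test. Fos was 12.5, 12.2, 9.15 and 8.21 CPM in kainate mice and 6.41, 6.17, 4.42 and 2.14 CPM in saline mice, Junb was 31.1, 25.5, 23.2 and 16.4 CPM against 15.9, 15.2, 11.9 and 11 CPM, and Fosl1 held 15, 13, 10 and 6 counts against 3, 1, 0 and 0. For these 3 genes every kainate library was above every saline library. The share of all genes that separated in this way was not counted, here or at day 7. In this comparison 7641 of the 21390 genes tested had an edgeR p under 0.05 before adjustment. The log2 fold changes were 1.14 (SE 0.61, adjusted p = 0.177) for Fos and 0.83 (SE 0.28, adjusted p = 0.0296) for Junb. The ratio of summed Fosl1 counts was 10.1 (95% exact interval 3.67 to 38.6, counting error only), and the edgeR test over the libraries gave Fosl1 an adjusted p of 0.0159. In a model of only the 8 libraries compared Junb was called, with an adjusted p of 0.00797. Egr1, Npas4, Nr4a1 and Arc had negative values of -0.55 (SE 0.33), -0.41 (SE 0.65), -0.38 (SE 0.48) and -0.34 (SE 0.42) with overlapping groups and adjusted p of 0.234 to 0.692, so no decrease was detected. At day 7 Fos and Fosb of all kainate PIZ libraries were above all saline ones, at 0.91 (SE 0.64, adjusted p = 0.537) and 0.74 (SE 0.38, adjusted p = 0.373). At day 14 the groups of all 10 genes overlapped, and Fosl1 was at 3 counts or fewer in every PIZ library of both days.

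Whether the kainate effect differed between the sides was tested directly. At day 7 the effect in the EZ exceeded that in the PIZ for Fos, by 3.48 (SE 0.90, adjusted p = 0.00594), and for Npas4, by 4.07 (SE 0.93, adjusted p = 0.00303) on the log2 scale, beside 9.89% of all genes called. With mouse as a replicate block, which compares the sides within each mouse, Fosl2 was called as well, at 2.03 (adjusted p = 0.00525; without the block 2.01, SE 0.68, adjusted p = 0.027). Leaving out 1 mouse ended the Fos call for 6 of the 8 mice and the Npas4 call for 5 of them, kainate mice 21 and 35 and saline mice 20, 34 and 89 for both and saline mouse 33 for Fos, while the differences kept between 3.35 and 3.62 for Fos and between 3.83 and 4.19 for Npas4. At day 3 none of the 10 was called, beside 0.0655% of all genes, although the difference was 3.65 (SE 0.91, adjusted p = 0.0442) for Npas4, 2.32 (SE 0.68, adjusted p = 0.079) for Nr4a1 and 1.99 (SE 0.53, adjusted p = 0.0577) for Fosb. Without mouse 44, Npas4 and Fosb were called at day 3, at 3.89 (SE 0.88, adjusted p = 0.00879) and 2.40 (SE 0.52, adjusted p = 0.00643), beside 0.96% of all genes. These calls rest on leaving out a mouse that was singled out by its low levels in this group. At day 14 none was called, as for all genes, 0% of which were. From day 3 to day 7 no PIZ effect of the 10 differed by the test, beside 0.0234% of all genes.

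**Figure D4:**
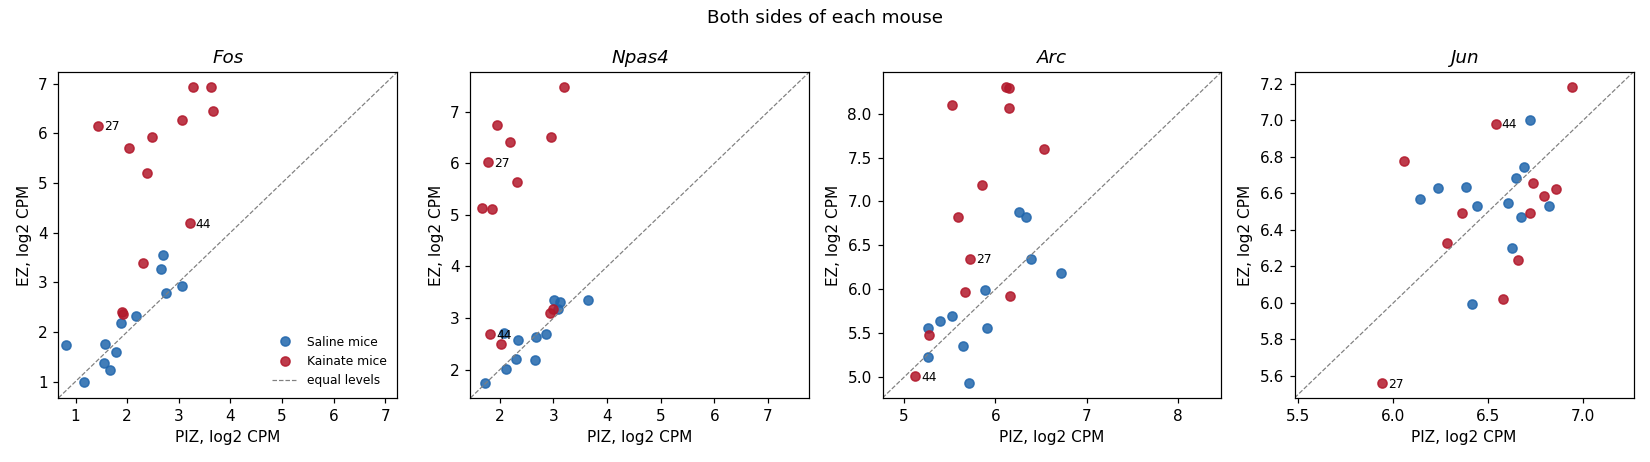
Each point is a mouse, with log2 CPM in the PIZ on the horizontal and in the EZ on the vertical axis, for Fos, Npas4, Arc and Jun; the dashed line marks equal levels, and mice 44 and 27 are numbered. Saline mice lie along the line for Fos and Npas4, and all 12 kainate mice lie above it for Fos.

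In saline mice none of the 10 genes was called between the injected and the opposite side at day 3, 7 or 14, with or without mouse as a replicate block, beside 0.0281%, 0% and 0% of all genes called. Without a call, Fosl2 was lower and Junb higher on the injected side in 10 of the 12 saline mice each. None of the 10 was called between day 14 and day 3 in either zone, with 0% of all genes called in each. They varied more from mouse to mouse than other genes. After the group means were removed, the SD of log2 CPM over the saline libraries was 0.786 for Fos, where the median gene of like abundance had 0.184, 0.569 for Arc (0.1) and 0.597 for Npas4 (0.173). Jun had 0.221 (0.1), and Fosl1, with few counts, was the exception, at 0.435 (0.579).

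Part of this resting variation was shared by the sides of a mouse. Over the 12 saline mice, deviations from the group mean in the EZ and the PIZ were related for Npas4 (Pearson's r = 0.861, exact permutation p = 0.00268, adjusted 0.0268; Spearman's rho = 0.839, p = 0.00145, adjusted 0.0145), with mice permuted within a day and 10 genes examined. The relation also passed for Fos (r = 0.848, exact permutation p = 0.00745, adjusted 0.0301; rho = 0.881, p = 0.00463, adjusted 0.0231) and Fosb (r = 0.844, exact permutation p = 0.00904, adjusted 0.0301; rho = 0.755, p = 0.0195, adjusted 0.0492). Without the 2 mice farthest from the median in the EZ, r was 0.773 for Npas4, 0.809 for Fos and 0.65 for Fosb. Arc (r = 0.72, exact permutation adjusted p = 0.0902) and Junb (r = 0.66, exact permutation adjusted p = 0.0902) did not pass by Pearson's r, while by Spearman's rho Junb passed (0.706, exact permutation adjusted p = 0.0492) and Arc did not (0.678, adjusted p = 0.117). Without the 2 farthest mice r was 0.45 for Junb and 0.787 for Arc. Over all 12 mice r was 0.0931 for Egr1, 0.2 for Nr4a1, 0.136 for Jun, 0.344 for Fosl1 and 0.384 for Fosl2, with exact permutation adjusted p of 0.628 to 0.81. Sex was not given for single mice, and its part in this variation was not tested.

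The genes whose log2 CPM followed each of the 10 most closely over the 48 libraries were found by Pearson's r. It was computed over all groups together, so treatment, side and cell makeup were not separated, and it is given as a description. Fos was followed most closely by Mcl1, an anti-apoptotic gene (r = 0.939), Myo1e (0.938) and the co-chaperone Bag3 (0.935), Fosb by the kinase gene Sik1 (0.903), Fos (0.902) and Bag3 (0.881), and Fosl2 by the neurotrophin gene Bdnf (0.945), the granin Scg2 (0.932) and Ctnnb1 (0.924). Junb had Irf2bpl (0.92), Gadd45g (0.904) and Ier2 (0.9). Egr1, Npas4, Nr4a1 and Arc were mostly closest to each other and to the immediate early gene Egr2 and the MAP kinase phosphatases Dusp1 and Dusp6: Egr1 to Arc (0.889), Npas4 to Nr4a1 (0.923), Nr4a1 to Dusp6 (0.925) and Arc to Nr4a1 (0.901). Fosl1 stood with Tgfbi (0.957), Tagln2 (0.956) and Nop9 (0.954). The closest gene to Jun, Sfmbt2, reached 0.694.

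Other inducible transcription factors moved in part with the 10 genes. Of 18 such genes, 10 were upregulated and none downregulated in the EZ at day 3, beside 16.1% of all genes called up and 8.61% down, 8 and 0 at day 7, beside 20.6% and 11.9%, and none was called at day 14, beside 2.32% and 0.0374%. Their median log2 change was 0.84 at day 3 and 0.77 at day 7. Ier2 rose by 2.10 (SE 0.34, adjusted p = 5.52e-06) and Ier5 by 1.2 (SE 0.25, adjusted p = 0.000187) at day 3. Egr3, the most abundant of the 18, rose by 0.84 (SE 0.25, adjusted p = 0.00542) at day 3 and had -0.12 (SE 0.25, adjusted p = 0.687) at day 7, and Nr4a3, the paralog of Nr4a1, had -0.43 (SE 0.39, adjusted p = 0.375) at day 3. In the PIZ at day 3, 2 of the 18 rose, beside 7.12% of all genes, Ier5 by 1 (SE 0.25, adjusted p = 0.00386) and Cebpb by 1.02 (SE 0.29, adjusted p = 0.00936).

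Activity-dependent effectors, the genes that carry out the response, rose in the majority. Of 27 genes, 18 were upregulated and 1 downregulated in the EZ at day 3, beside 16.1% of all genes called up and 8.61% down, and 17 and 1 at day 7, beside 20.6% and 11.9%. Their median log2 change was 1.80 at day 3 and 1.54 at day 7. Sik1 rose by 2.18 (SE 0.28, adjusted p = 1.76e-07), the secretogranin gene Scg2 by 1.86 (SE 0.42, adjusted p = 0.000432) and Nptx2, which clusters AMPA receptors, by 3.41 (SE 0.44, adjusted p = 2.7e-07) at day 3. The downregulated gene on both days was Rasgrp1, at -0.89 (SE 0.26, adjusted p = 0.00468) at day 3. At day 14 Scg2 (1.77, SE 0.42, adjusted p = 0.00711) and Ccn1 (3.20, SE 0.68, adjusted p = 0.00326) were called, beside 2.32% of all genes called up. In that comparison 504 genes were called with all mice, 7 without mouse 27, and 0 in limma-voom with mouse as a replicate block, a setting that changes both the method and the block. In the PIZ at day 3, Nptx2 rose by 1.59 (SE 0.42, adjusted p = 0.00518), Pim1 by 1.26 (SE 0.36, adjusted p = 0.00934) and Gadd45g by 0.96 (SE 0.27, adjusted p = 0.00833), the 3 of the 27 that were called, beside 7.12% of all genes called up.

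Of 14 partners of AP-1 outside the Fos family, Jun and Junb, 6 rose and 1 fell in the EZ at day 3, beside 16.1% of all genes called up and 8.61% down, and 7 rose and 1 fell at day 7, beside 20.6% and 11.9%. Atf3, a stress-inducible partner of Jun proteins, rose by 3.39 (SE 0.56, adjusted p = 8.14e-06) at day 3 and 3.48 (SE 0.57, adjusted p = 3.39e-06) at day 7. Atf2, which binds DNA with Jun, fell by 0.63 (SE 0.10, adjusted p = 6.5e-06) at day 3, and Atf4 had 0.23 (SE 0.14, adjusted p = 0.182). At day 14 in the EZ only Maff was called, at 2.62 (SE 0.63, adjusted p = 0.00826). This was 1 of the 14, beside 2.32% of all genes called up and 0.0374% down, in the comparison where 504 genes were called with all mice and 7 without mouse 27.

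Some genes upstream of immediate early transcription fell in the EZ. Of 25 receptors, channels, kinases and promoter-bound factors, none rose and 11 fell at day 3, beside 8.61% of all genes called down, and 16 fell at day 7, beside 11.9%, and none was called at day 14, beside 2.32% of all genes called up and 0.0374% down. The median log2 change of the 25 was -0.57 at day 3 and -0.72 at day 7. Camk2a fell by 1.48 (SE 0.27, adjusted p = 3.23e-05), Camk4, a kinase that activates CREB, by 1.97 (SE 0.31, adjusted p = 4.95e-06) and the NMDA receptor gene Grin2b by 0.96 (SE 0.27, adjusted p = 0.00385) at day 3. In the PIZ at day 3 Camk4 fell by 1.27 (SE 0.30, adjusted p = 0.00226) and Mapk10, a JNK kinase, by 0.68 (SE 0.16, adjusted p = 0.00214), the only ones of the 25, beside 1.57% of all genes called down. The EZ libraries held less neuronal transcript at the same time: the summed level of 6 neuron markers was 1936 to 3327 CPM in kainate mice against 4333 to 5226 CPM in saline mice at day 3, and 1329 to 3336 against 4421 to 5594 CPM at day 7. In the PIZ at day 3 this sum was 3909 to 4336 CPM in kainate mice against 4585 to 5869 CPM in saline mice. The part of less neuronal transcript in the fall of these genes was not tested on either side.

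Of 9 heat shock genes, a list of general cell stress, 1 rose in the EZ at day 3, Hspb1, by 3.04 (SE 0.44, adjusted p = 1.18e-06), beside 16.1% of all genes called up, while the abundant Hspa8 had 0.00 (SE 0.11, adjusted p = 0.999). At day 7, beside 20.6% of all genes called up and 11.9% down, Hspb1 rose and Hspa1b fell, by 0.90 (SE 0.29, adjusted p = 0.00882), and Hsp90aa1 had -0.58 (SE 0.14, adjusted p = 0.000398), a change under the fold threshold. Over the whole list the median, in log2 units, was 0.06 on day 3 and -0.20 on day 7.

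Microglia, fibroblast and other glial and vascular markers were also called up in the kainate EZ at days 3 and 7. All 7 microglia markers were called up at day 7, beside 20.6% of all genes called up, and 6 of 7 at day 3, beside 16.1%, and their summed level was 1427 to 2486 CPM in kainate mice against 515.4 to 874.6 CPM in saline mice at day 3, and 1734 to 6476 against 446.5 to 490.8 CPM at day 7. All 5 fibroblast markers were up on both days, with sums of 64.95 to 344.7 against 24.58 to 44.14 CPM at day 3. Granule cell markers summed to 349.9 to 615.9 CPM in kainate mice against 702.6 to 894 CPM at day 3, with 3 of 6 called down, beside 8.61% of all genes. Of 5 endothelium markers 3 were called up on both days, as were both markers of oligodendrocyte precursors, while 3 of 7 astrocyte markers were up and 1 down at day 3 and 5 of 7 were up at day 7. The share of mitochondrial counts was 5.01% to 5.88% in the kainate EZ libraries of day 3 and 7.14% to 7.49% in the saline ones, and its part in the day 3 results was not tested. In the PIZ at day 3 all 7 microglia markers were up as well, with sums of 976.3 to 1191 against 304.6 to 418 CPM, 3 of 7 astrocyte markers were up and 2 of 6 granule cell markers were down, beside 7.12% of all genes called up and 1.57% down, and none of the 10 immediate early genes was called there. Several of the 10, Fos, Junb, Fosl2 and Egr1 among them, are also transcribed by glia and vascular cells, and how much of each rise came from neurons was not tested.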

How the data were processed

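PolyA RNA of the EZ and PIZ of each mouse was sequenced with a stranded kit. The authors deposited raw counts per gene; the submitters' processing notes name fastp 0.20.1, HISAT2 2.2.1, Subread 1.6.4, R 4.1.1 and DESeq2 1.32.0, and the annotation was Gencode M28 on GRCm39. Multimapping reads were counted at their primary alignment, so reads shared by near-identical genes could be misplaced. Of the gene identifiers, 98.9% were found in Gencode M39, which gave positions and exon lengths.

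Groups came from the sample labels. Counts were fitted with edgeR 4.0.16 (quasi-likelihood, TMM, its expression filter, R 4.3.3) over all 48 libraries with 12 group means, leaving 36 residual degrees of freedom. Differences between kainate effects were contrasts of the same model. P-values were adjusted by Benjamini-Hochberg over all genes tested, and SE was computed from the fold change and its F statistic. Log2 CPM used a prior count of 2. The script was tested on simulated data.

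The 2 libraries of a number come from the same mouse by their titles. Their deviations from the group means correlated with r between -0.0536 and 0.376, median 0.208, and exceeded 0.1 in 20 of 24 mice. The model without mouse was kept as the main one, and mouse as a block was an alternative. Other alternatives were DESeq2 1.42.0, only the compared groups, no filter, an adjusted p of 0.05, scaling by RLE or by library size alone, limma-voom 3.58.1 and leaving out each mouse.

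All 10 members are named. From each other list, the 2 most abundant genes and the called gene with the smallest p in each direction in the EZ and PIZ at day 3 are named, and every called gene where a list had at most 5, except 1 gene that is not reported here. The members and lists were chosen with earlier results of these data known. A floor of 3 counts was used for folds.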

Additional observations from a re-analysis of the deposited data

Results flagged for a closer look

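Of 120 combinations of gene and group, 6 had 1 library farther from the other 3 than Dixon's test allows at the 95% level, and chance flags about 1 in 20 groups. In the EZ of kainate mice at day 3, mouse 44 was low for Egr1, at 30.2 CPM against 150 to 162 in the others (ratio 0.954), for Nr4a1, at 18.5 against 144 to 202 CPM (0.858), and for Arc, at 32.1 against 267 to 317 CPM (0.926). Nr4a1 was high in mouse 35 at day 7, at 187 against 72.7 to 83.9 CPM (0.848), and in mouse 27 at day 14, at 151 against 24.7 to 30.7 CPM (0.881). Among saline mice, Fosl2 was low in mouse 18 in the EZ at day 3, at 33 against 41.8 to 43 CPM (0.898).

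The kainate effect at day 7 differed between the zones by the test of the difference for Fos, by 3.48, and for Npas4, by 4.07, on the log2 scale. Leaving out 1 mouse ended the call of Fos for 6 of 8 mice and that of Npas4 for 5 of 8.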

How the results depend on the processing

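The comparisons counted first are those of kainate with saline in each zone and day and of the zones at each day. Under the alternatives that kept all mice, 608 member results kept their side of the threshold, 13 became called and 2 lost their call. No called result reversed its direction. Any uncalled value that changed sign moved by no more than its SE and is counted among the 608. An adjusted p under 0.05 gave 2 of the 10 genes in the PIZ at day 3 (13.2% of all genes) and 2 in the EZ at day 14 (4.82%). It gave 1 for the difference of zones at day 3 and 2 for day 14 minus day 7 in the EZ. Egr1 was gained in the EZ at day 3 (29.9% of all genes) and Fosl2 for the difference of zones at day 7. DESeq2 gave 1 in the EZ at day 14, where it called 731 of all genes. It also gave 1 for the difference of zones at day 3 and 1 for day 14 minus day 7 in the EZ. Fitting the groups alone gave 1 in the PIZ at day 3, beside 2284 of all genes. It gave 6 in place of 8 in the EZ at day 3, without Nr4a1 and Arc, beside 4625 of all genes. For the difference of zones at day 7 it gave 3 in place of 2, with Fosl2. Shares of all genes for the differences under these settings are not given here. The cause of these shifts was not tested. When each mouse was left out in turn, the count of called members ranged from 8 to 9 in the EZ at day 3, 8 to 9 at day 7 and 0 to 2 at day 14. Of all genes, 3921 to 5962, 5450 to 7947 and 7 to 893 were called there. The 2 members at day 14 were called without mouse 14 or 36, beside 835 and 893 of all genes. The count was 0 to 2 for the difference of zones at day 3, 0 to 2 at day 7, and 0 to 8 for day 14 minus day 7 in the EZ. It stayed at 0 in the other comparisons. For the differences, leave-out shares of all genes are given above only for mice 44 and 27. Mouse as a replicate block called Fosl2 for the difference of zones at day 7 (2.03) and changed no other member call. Fitting the groups alone, where Fosl1 was not tested in the EZ at day 7, called 3847 of all genes there in place of 6960. The 504 genes called in the EZ at day 14 fell to 0 when those 2 groups were fitted alone, to 0 in limma-voom with mouse as a block, which changes the method too, and to 7 without mouse 27, and the 43 in the PIZ at day 7 ranged from 7 to 76 with 1 mouse left out and were 198 with DESeq2, 154 with the groups fitted alone and 24 in limma-voom with the block. Depth limits Fosl1, with 3 counts or fewer in many libraries.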
